A study of Mus musculus with 8 samples.

Results

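The Notch pathway genes described here are 10 rows of a gene expression table of 18561 genes, chosen by symbol from knowledge of the pathway and followed across all 8 libraries. They comprise 3 receptors (Notch1, Notch2, Notch3), 3 ligands (Dll1, Dll4, Jag1) and 4 transcriptional targets (Hes1, Hes5, Hey1, Nrarp), and all 10 were found. The libraries came from enteric neural crest cells, cells that colonise the gut and give rise to its nervous system, sorted from mouse gastrointestinal tracts at embryonic day 14.5 with antibodies to CD271 and CD57. A tube held about 200 cells, and 5 tubes were labelled Emb knockdown (kd 1 to 5) and 3 WT. Both groups had the same age, tissue, sort and library preparation. How the knockdown was made, the strain, and whether a tube held cells of 1 or of several embryos are not given in the sources used here, so p-values speak only of the variation among these tubes, which could be technical.

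Notch is a single-pass receptor that is activated by Delta-like and Jagged ligands on a neighbouring cell. Binding lets ADAM proteases and then gamma-secretase cut the receptor, and the freed intracellular domain joins the DNA-binding protein RBPJ and a Mastermind coactivator to switch on genes such as those of the HES and HEY repressors. In the developing gut the pathway is known for holding enteric neural crest progenitors back from becoming neurons. It also acts in other cells of the gut wall, with DLL4 and NOTCH1 prominent in blood vessel endothelium and NOTCH3 in the mural cells around vessels.

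Libraries held 20116566 to 26959246 counts, and 3 counts were worth 0.0966 to 0.155 CPM (counts per 1000000 of a library size scaled by trimmed mean of M values, TMM). Emb, the gene named in the labels, stood at 353, 349, 37.2, 21.4 and 21.7 CPM in the libraries labelled kd 1 to 5 and at 16.9, 17.7 and 15.9 CPM in WT 1 to 3. It was thus in no case lower in a library labelled kd, and all directions below are between labels. The libraries labelled kd 1 and 2 stood apart from the other 6: their summed level of 12 macrophage and leukocyte markers was 18232 to 21555 CPM, against 1064 to 1868 CPM in those labelled kd 3 to 5 and 263 to 484 CPM in WT. Their sum of 10 progenitor markers was 168 to 212 CPM, against 1083 to 1253 and 3052 to 3121 CPM, and Sox10, which defines these cells, had 0 counts in the library labelled kd 2. The members are therefore compared with all 8 libraries and with the 6 that leave out these 2, and marker lists are counted in the 6. In bulk libraries, fewer cells of a type and less RNA per cell cannot be told apart.

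In the 6 libraries, Notch2 and Notch3 rose and Dll4 and Nrarp fell in those labelled kd, while Notch1, Dll1, Jag1, Hes1, Hes5 and Hey1 did not pass (quasi-likelihood test of edgeR, p adjusted by Benjamini-Hochberg across the genes tested, threshold 0.05). These 4 calls among 10 members stand beside 20.4% of 15115 tested genes called, 11.1% higher and 9.37% lower. At an unadjusted p under 0.05 the members numbered 4, 2 higher and 2 lower, beside 37.5% of genes (19.8% higher and 17.7% lower). DESeq2's Wald test also called 4 members, beside 31.3% of genes, and limma voom with quality weights 6, beside 45.5%. The median log2 fold change of the members was -0.17, against 0.02 over all genes tested. The calls rest on few libraries: leaving out 1 of the 6 at a time left 1 to 5 members called. The count fell to 1 without the library labelled kd 4 or WT 3 and to 2 without the library labelled kd 5, WT 1 or WT 2. Over all genes, the calls numbered 180 without the library labelled kd 4 and 294 without WT 3. They were 417 without WT 2, 1388 without WT 1, 1663 without the library labelled kd 5 and 5982 without that labelled kd 3. Each of these fits tested 15394 to 15533 genes. Nrarp was the only one of the 4 called in each of these fits, while Dll4 passed in 4 of the 6 and Notch2 and Notch3 in 1 of the 6, the fit without the library labelled kd 3.

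With all 8 libraries edgeR called 0 of the 10 members, and 0% of 15411 genes. At an unadjusted p under 0.05 there were 2 members, Notch2 higher and Nrarp lower, beside 18.6% of all genes (12.7% higher and 5.9% lower). DESeq2's Wald test called 1 member, Nrarp (adjusted p = 0.000668), beside 14.5% of genes, and limma voom with quality weights called 2, Notch2 and Nrarp (adjusted p = 0.0242 and 0.00953), beside 24.1%. The plot of fold changes shows how the standard errors of Notch3, the ligands, Hes5 and Hey1 widened when the libraries labelled kd 1 and 2 were included.

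**Figure D1:**
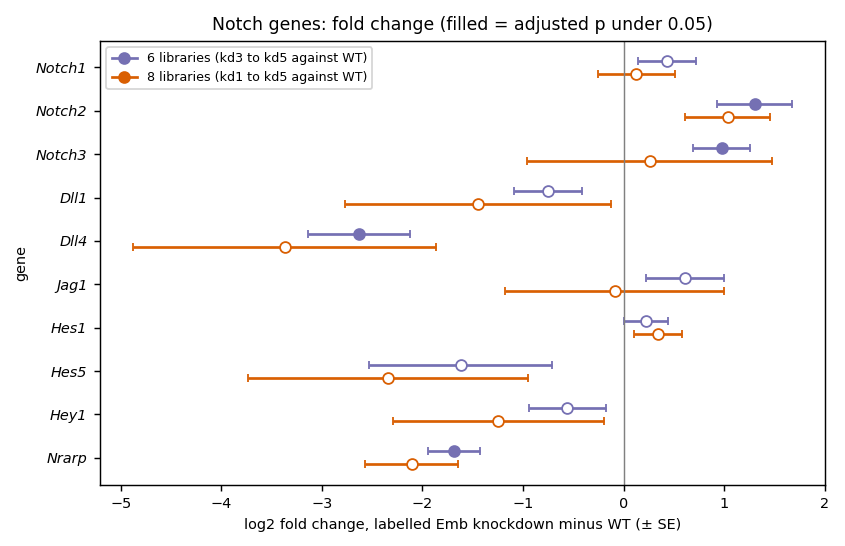
Log2 fold change (x axis, labelled Emb knockdown minus WT, bars are ± SE) of each Notch gene (y axis) in the fits of 6 and of 8 libraries, with filled points for an adjusted p under 0.05. Filled points are Notch2 (1.30), Notch3 (0.98), Dll4 (-2.63) and Nrarp (-1.68) with 6 libraries, and none with 8.

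Levels of different genes were compared in TPM, a share of a library's transcripts that is scaled to gene length. In WT, Hes1 had the highest level of the 10 at 43.5 ± 13.1 TPM (SD, n = 3), and its lowest library, at 29.2 TPM, lay above the highest value of any other member, 23.1 TPM for Dll1. Nrarp (18.6 ± 1.89 TPM), Dll1 (16.9 ± 5.56), Hey1 (14.7 ± 4.06), Notch1 (11.6 ± 2.57), Dll4 (10.5 ± 5.52), Notch2 (9.01 ± 1.30) and Jag1 (8.35 ± 2.33) followed, and each overlapped its neighbour in this order over the 3 libraries. Notch3 (4.29 ± 0.787 TPM) and Hes5 (2.24 ± 1.20 TPM) were the lowest and overlapped neither each other nor, in the case of Notch3, Jag1. In the libraries labelled kd 3 to 5 the order ran from Hes1 (42.3 ± 8.31 TPM) through Notch2 (17.5 ± 9.32), Notch1 (12.3 ± 3.62), Jag1 (9.55 ± 4.90), Hey1 (8.65 ± 5.31), Dll1 (8.18 ± 3.36), Notch3 (6.67 ± 2.34) and Nrarp (4.50 ± 0.819) to Dll4 (1.54 ± 0.732) and Hes5 (0.617 ± 0.510 TPM). Nrarp thus stood second in WT and eighth there, as a description of these libraries.

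**Figure D2:**
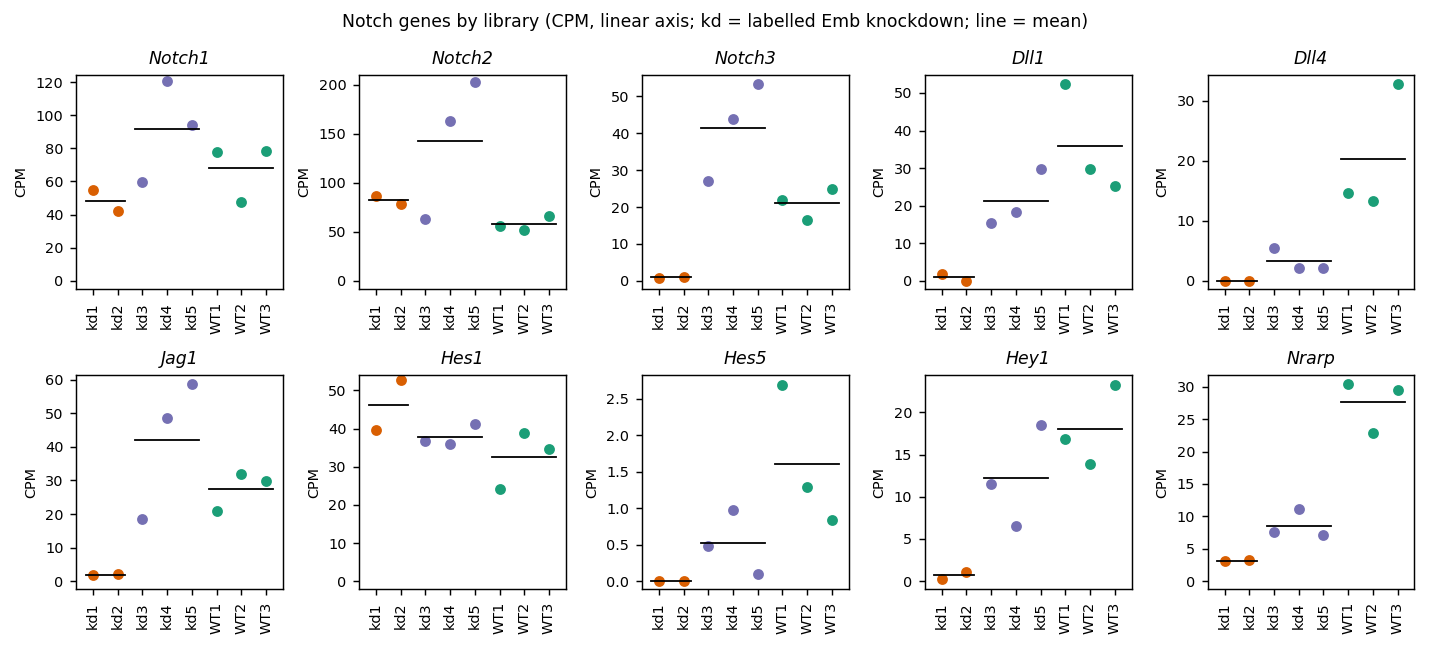
CPM of each Notch gene (y axis, linear) in each library (x axis, kd for labelled Emb knockdown), with a line at the mean of the libraries labelled kd 1 and 2, of those labelled kd 3 to 5 and of WT. Nrarp and Dll4 are lower in all libraries labelled kd than in any WT library, and Notch3, Dll1, Dll4, Jag1, Hes5 and Hey1 are near 0 in those labelled kd 1 and 2, where Notch1, Notch2 and Hes1 are not.

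Of the receptors, Notch1 (gene identifier 18128, chromosome 2, 26457902 to 26503822 of GRCm38.p6) encodes a receptor used in neural progenitors and endothelium. It stood at 54.6, 42.3, 59.8, 121 and 94.2 CPM in the libraries labelled kd 1 to 5 and at 77.9, 47.6 and 78.7 CPM in WT 1 to 3. The groups overlapped with and without the libraries labelled kd 1 and 2, and the log2 fold change of 0.43 ± 0.29 (SE) with 6 libraries did not pass (adjusted p = 0.310). With 8 libraries it was 0.13 ± 0.38, a value that changed sign when library size alone was used for scaling (-0.0555).

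Notch2 (18129, chromosome 3, 98013538 to 98150367) encodes a receptor that is also used by myeloid cells. Its levels were 86.2, 78.2, 62.8, 163 and 203 CPM in the libraries labelled kd 1 to 5 and 55.8, 51.7 and 66.5 CPM in WT. In CPM the library labelled kd 3 lay inside the WT range and those labelled kd 4 and 5 lay far above it. Those labelled kd 1 and 2 lay a little above it. In TPM the libraries labelled kd 1, 2 and 3 were at 7.91, 7.76 and 7.79, below WT at 7.98 to 10.5. Those labelled kd 4 and 5 were above WT in TPM too, at 18.4 and 26.4. Notch2 rose by a log2 fold change of 1.30 ± 0.37 with 6 libraries (adjusted p = 0.0406) and had 1.03 ± 0.43 with 8 (adjusted p = 0.252). The call ended when any library but that labelled kd 3 was left out (adjusted p from 0.105 to 0.143), and on log2(FPKM + 1) (adjusted p = 0.0816). Macrophage and leukocyte markers, whose sums are given above, were higher in every library labelled kd than in WT, and their part in the Notch2 result was not tested.

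Notch3 (18131, chromosome 17, 32120820 to 32166896) encodes the receptor of vascular mural cells and smooth muscle. It measured 0.773 and 1.18 CPM in the libraries labelled kd 1 and 2, at 27.1, 44.0 and 53.3 CPM in those labelled kd 3 to 5 and at 22.0, 16.5 and 24.8 CPM in WT. The last 2 groups did not overlap, and the log2 fold change with 6 libraries was 0.98 ± 0.28 (adjusted p = 0.0420). That call too ended without any single library other than that labelled kd 3 (adjusted p from 0.0981 to 0.152) and on log2(FPKM + 1) (adjusted p = 0.0785). With 8 libraries the value was 0.26 ± 1.22. Of 10 mural and smooth muscle markers 3 rose in the 6 libraries, none fell and 7 did not pass (median 0.51). Over all genes 11.1% rose and 9.37% fell. The summed level of the mural markers was 2657, 2358 and 1638 CPM in the libraries labelled kd 3, 4 and 5, the reverse of the order of Notch3. It was 1412 to 1969 CPM in WT and 73.4 to 474 CPM in those labelled kd 1 and 2, with no defining marker at 0. The part of these markers in the Notch3 result was not tested.

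Of the ligands, Dll1 (13388, chromosome 17, 15367354 to 15376932) encodes a Delta-like ligand that is typical of cells entering neurogenesis. It measured 1.96 and 0 CPM in the libraries labelled kd 1 and 2, at 15.4, 18.4 and 29.7 CPM in those labelled kd 3 to 5 and at 52.3, 29.8 and 25.2 CPM in WT. The 0 allows up to 0.141 CPM. The library labelled kd 5 reached into the WT range, and the log2 fold change of -0.75 ± 0.34 with 6 libraries did not pass (adjusted p = 0.141), nor did -1.45 ± 1.33 with 8 (adjusted p = 0.610).

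Dll4 (54485, chromosome 2, 119325784 to 119335666), which encodes the ligand of sprouting and arterial endothelium, had the log2 fold change farthest from 0 of the 10 with 6 libraries. Dll4 had 0 counts in the libraries labelled kd 1 and 2, where up to 0.155 and 0.141 CPM are allowed, and was at 5.40, 2.20 and 2.12 CPM in those labelled kd 3 to 5. In WT it was at 14.6, 13.3 and 32.7 CPM, so no library labelled kd reached any WT library. The log2 fold change with 6 libraries was -2.63 ± 0.51 (adjusted p = 0.0144), a 6.18-fold lower level. With 8 libraries it was -3.37 ± 1.51 and did not pass (adjusted p = 0.283). The call ended without the library labelled kd 4 (adjusted p = 0.0780) or WT 3 (0.0680).

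Endothelial markers moved with Dll4. In the 6 libraries 10 of 12 such genes fell, 2 did not pass and none rose (median -1.83 on the log2 scale). Their sum was 82.4 to 86.6 CPM in the libraries labelled kd 1 and 2. It was 118 to 220 CPM in those labelled kd 3 to 5 and 524 to 747 CPM in WT. None of the defining markers Cdh5, Pecam1 and Kdr was at 0 in any library, but 3 of the 12 markers had 0 counts in both libraries labelled kd 1 and 2. The part of these markers in the Dll4 result was not tested.

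Jag1 (16449, chromosome 2, 137081451 to 137116520) encodes a Jagged ligand made by many epithelial, vascular and smooth muscle cells. It measured 1.70 and 2.03 CPM in the libraries labelled kd 1 and 2, at 18.4, 48.7 and 58.6 CPM in those labelled kd 3 to 5 and at 20.9, 31.8 and 29.8 CPM in WT. The library labelled kd 3 lay below WT and the other 2 above it, so the log2 fold change of 0.61 ± 0.39 with 6 libraries did not pass (adjusted p = 0.280). Without the library labelled kd 3 it was 0.95 ± 0.22 (adjusted p = 0.0114), and with all 8 libraries -0.09 ± 1.09 (adjusted p = 0.978).

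The make-up of the ligands differed between the libraries, here as shares of the summed TPM of the 3 genes and without a test. Dll4 took 20.6% to 44.1% of it in WT and 4.27% to 18.6% in the libraries labelled kd 3 to 5. Jag1 took 15.8% to 31.4% in WT and 34.6% to 57.0% there, while the share of Dll1 overlapped (32.2% to 63.5% against 36.9% to 46.8%). Among the receptors Notch1 took 41.9% to 50.5% in WT and 27.7% to 40.3% in the libraries labelled kd 3 to 5. The share of Notch2 overlapped (32.6% to 41.0% against 38.1% to 53.8%). So did that of Notch3 (16.9% to 17.5% against 16.3% to 21.6%), which was 0.664% to 1.19% in those labelled kd 1 and 2. Among the targets Hes1 took 45.5% to 64.2% in WT and 73.7% to 77.5% in those labelled kd 3 to 5. Nrarp took 19.4% to 29.5% and 5.63% to 11.5%, while the shares of Hes5 and Hey1 overlapped.

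**Figure D3:**
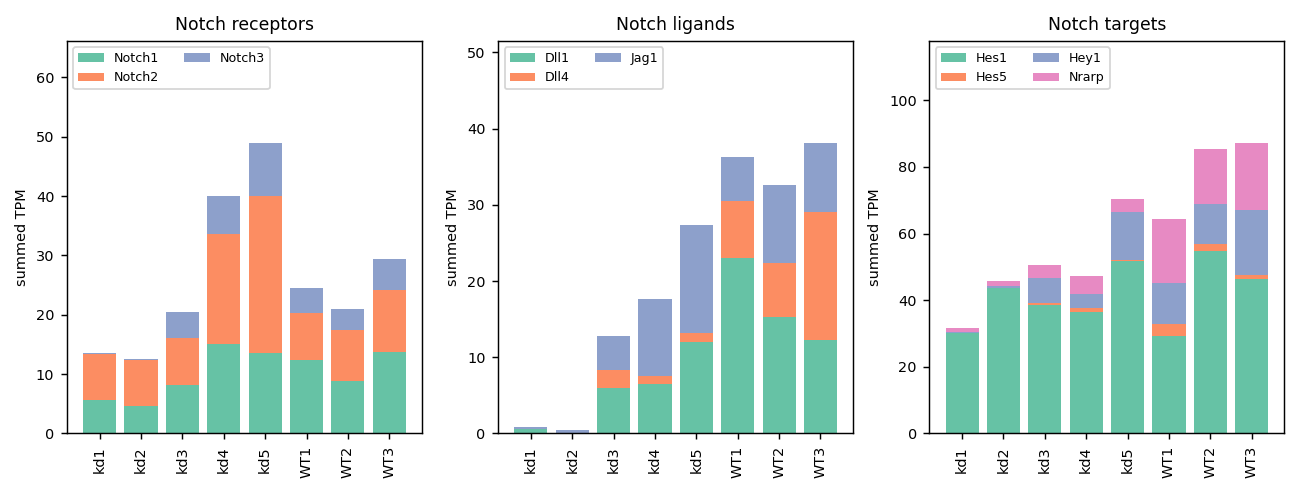
Summed TPM (y axis, stacked by gene) of the Notch receptors, ligands and targets in each library (x axis, kd for labelled Emb knockdown). Dll4 takes 20.6% to 44.1% of ligand TPM in the WT libraries and at most 18.6% in those labelled kd 3 to 5, and Hes1 takes 95.6% to 95.7% of target TPM in those labelled kd 1 and 2.

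Of the targets, Hes1 (15205, chromosome 16, 30065357 to 30067796) encodes a repressor that keeps progenitors undifferentiated and that other pathways also induce. It stood at 39.7, 52.7, 36.8, 35.8 and 41.1 CPM in the libraries labelled kd 1 to 5 and at 24.1, 38.9 and 34.6 CPM in WT. In CPM the libraries labelled kd 3 to 5 overlapped WT, and both libraries labelled kd 1 and 2 lay above the highest WT library. In TPM those labelled kd 1 and 2 lay inside the WT range, at 30.2 and 43.7 against 29.2 to 54.9. The log2 fold change with 6 libraries was 0.22 ± 0.22 (adjusted p = 0.484) and with 8 libraries 0.34 ± 0.24 (adjusted p = 0.495).

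Hes5 (15208, chromosome 4, 154960626 to 154962372) encodes a repressor that depends closely on Notch in neural progenitors. It was scarce, with 62, 40 and 23 counts in WT 1 to 3 and 0, 0, 13, 21 and 2 counts in the libraries labelled kd 1 to 5. In CPM these were 2.69, 1.29 and 0.844 in WT and 0.481, 0.982 and 0.0922 in those labelled kd 3 to 5. The groups overlapped through the library labelled kd 4, and the log2 fold change of -1.62 ± 0.91 with 6 libraries did not pass (adjusted p = 0.227), nor did -2.34 ± 1.39 with 8 (adjusted p = 0.416).

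Hey1 (15213, chromosome 3, 8663359 to 8667038), whose protein acts in vessels and heart as well as in neural precursors, measured 0.309 and 1.08 CPM in the libraries labelled kd 1 and 2, and reached 11.5, 6.55 and 18.5 CPM in those labelled kd 3 to 5. In WT it was at 16.9, 13.9 and 23.3 CPM. The library labelled kd 5 lay within the WT range, and the log2 fold change of -0.56 ± 0.38 with 6 libraries did not pass in edgeR's test (adjusted p = 0.316), while limma voom with quality weights gave -1.16 (adjusted p = 0.0296). With 8 libraries edgeR gave -1.24 ± 1.05 (adjusted p = 0.576).

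Nrarp (67122, chromosome 2, 25180758 to 25183339) encodes a small ankyrin repeat protein that is induced by Notch and dampens it by binding the receptor's intracellular domain and RBPJ. It stood at 3.09, 3.203, 7.55, 11.1 and 7.05 CPM in the libraries labelled kd 1 to 5 and at 30.5, 22.8 and 29.5 CPM in WT. The highest library labelled kd was thus below the lowest WT library. Nrarp fell by 1.68 ± 0.26 on the log2 scale with 6 libraries (adjusted p = 0.00908), and this call held in each of 14 alternative fits, the largest adjusted p being 0.0497 without WT 3. With 8 libraries the value was -2.11 ± 0.47 (adjusted p = 0.137). Progenitor markers moved with it, with 8 of 10 lower and none higher in the 6 libraries (median -1.46), as did the endothelial markers given above, and their part in the Nrarp result was not tested.

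Groups that did not overlap were seen for 3 of the 10 members in the 6 libraries, Notch3, Dll4 and Nrarp, beside 43.4% of all genes tested. In the 8 libraries there were 2, Dll4 and Nrarp, beside 22.7%.

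Promoters of 8 members were matched by gene identifier in RefSeq sequences of GRCm38.p6, and those of Hes1 and Hey1 were not matched. In the 250 bases before the transcription start, the core of the RBPJ site was searched as TGGGAA on both strands (TTCCCA on the other). It occurred in 21.6% of 32851 such windows and at least 2 times in 2.77%. Among the 9 windows of the members only that of Hes5 held it, and held it 2 times, starting 226 and 82 bases before the start used in that table, which lies inside the gene span given above. Both are shown because Hes5 is the member in which the letters read by RBPJ were found, with the match in capitals and 12 bases on each side, on the plus strand at chr4:154960685-154960714 and chr4:154960829-154960858.
Hes5 distal: agggcgagcgcgTTCCCAcagcccggacat
Hes5 proximal: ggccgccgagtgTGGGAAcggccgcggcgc

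The promoters of Nrarp and Dll4 are shown because these members fell. They lie on the plus strand at chr2:25180508-25180757 and chr2:119325534-119325783, and held no TGGGAA. Capitals mark a site class bound by HES proteins, searched as CACNAG on both strands (CTNGTG on the other), which can share no more than 2 end bases with TGGGAA. It occurred in 36.7% of all windows, at least 2 times in 8.18%, and in 5 of the 9 windows of the members. Nrarp and Notch3 each held it 2 times, and Dll4, Notch1 and Notch2 each held it 1 time. Of these, Notch2 and Notch3 rose in the 6 libraries and Notch1 did not pass. A match is a run of letters, and binding was not measured.
Nrarp promoter: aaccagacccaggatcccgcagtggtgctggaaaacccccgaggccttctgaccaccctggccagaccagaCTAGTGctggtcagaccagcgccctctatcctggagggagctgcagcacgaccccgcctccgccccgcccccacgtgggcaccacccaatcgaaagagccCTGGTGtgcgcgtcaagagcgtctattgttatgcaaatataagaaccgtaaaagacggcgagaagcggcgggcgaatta
Dll4 promoter: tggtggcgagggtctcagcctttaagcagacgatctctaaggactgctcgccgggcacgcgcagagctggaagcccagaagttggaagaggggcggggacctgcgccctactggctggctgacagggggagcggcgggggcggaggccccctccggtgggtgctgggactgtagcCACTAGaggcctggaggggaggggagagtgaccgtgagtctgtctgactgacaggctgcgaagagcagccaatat

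Of 61 other genes of the pathway, on a list taken from textbook knowledge, 54 were tested in the 6 libraries, of which 7 rose, 12 fell and 35 did not pass, beside 11.1% of all genes higher and 9.37% lower. With 8 libraries edgeR called 0 of 56, beside 0% of all genes. At an unadjusted p under 0.05 there were 8 higher and 4 lower, beside 12.7% and 5.9% of all genes. DESeq2 called 7 higher and 4 lower, beside 14.5% of genes in either direction. Voom with limma called 9 in each direction, beside 24.1% of genes in either direction. Changes named by role below are of the 6 libraries. Their median log2 fold change was -0.03, against 0.02 over all genes. With library size alone as the scaling, 3 rose and 13 fell, and on log2(FPKM + 1), which shifted the median of all genes by -0.13, 2 rose and 14 fell. Without the library labelled kd 4, none of them passed in edgeR's test, beside 180 of all genes. Without WT 2 or WT 3, 4 passed, beside 417 and 294 of all genes. With WT 1 left out 8 passed, beside 1388 genes. The fit without the library labelled kd 5 called 9, beside 1663, and that without the library labelled kd 3 called 30, beside 5982. These fits tested 15394 to 15533 genes.

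Among the other receptors and ligands, 1 of 5 rose and 1 fell. Dll3, which encodes a divergent ligand that acts within the cell and is typical of neuronal precursors, fell from 57.8 ± 18.3 CPM in WT to 19.9 ± 5.07 CPM (SD, n = 3 each, log2 fold change -1.53 ± 0.28, adjusted p = 0.0136). Dlk1, which encodes a Delta-like protein without the usual receptor-binding domain and is imprinted, rose from 328 ± 78.3 to 782 ± 101 CPM (1.26 ± 0.22, adjusted p = 0.0129). Dlk1 was below every WT library in those labelled kd 1 and 2, at 9.38 and 59.9 CPM, and its value with 8 libraries was 0.56 ± 1.17. Of 3 tested further HES and HEY genes, Heyl fell from 42.4 ± 3.88 to 13.9 ± 5.67 CPM (-1.61 ± 0.32, adjusted p = 0.0149) and Hes6, whose protein promotes neurogenesis and opposes HES1, from 159 ± 25.6 to 71.5 ± 17.0 CPM (-1.15 ± 0.22, adjusted p = 0.0146).

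Of 10 genes of receptor proteolysis, 2 fell and none rose: Furin, which encodes the convertase of the first cut (-0.68 ± 0.17), and Ncstn, which encodes the gamma-secretase subunit nicastrin (-0.96 ± 0.28). In CPM both were above every WT library in the libraries labelled kd 1 and 2. Furin was at 72.0 and 58.0 CPM there against 42.9 to 50.1 CPM in WT. Ncstn was at 209 and 212 against 143 to 176 CPM. This order depended on the measure. In TPM Furin was below every WT library there, at 17.0 and 14.74 against 17.75 to 20.35. Ncstn was at 74.6 and 82.1 TPM there against 79.9 to 114 TPM in WT. With 8 libraries the log2 fold changes of Furin and Ncstn were -0.11 and -0.26. Of 5 genes of receptor glycosylation 3 fell and 1 rose. The 3 that fell were the Fringe genes, whose enzymes extend O-fucose on Notch and shift its preference between Delta-like and Jagged ligands. Mfng fell from 117 ± 24.2 to 39.2 ± 8.04 CPM (-1.57 ± 0.22, adjusted p = 0.00680), Lfng by 1.00 ± 0.23 and Rfng by 0.52 ± 0.16 on the log2 scale. Lfng was highest in the libraries labelled kd 1 and 2, at 89.1 and 74.2 CPM, against 26.9 to 38.2 CPM in WT.

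Of 13 genes of ubiquitin transfer and endocytosis 3 rose and 1 fell. Neurl1b, which encodes a ligase that promotes ligand endocytosis, rose from 5.17 ± 2.38 to 26.1 ± 10.5 CPM (2.34 ± 0.44, adjusted p = 0.0137), Mib1, the main ligase of Notch ligands, rose by 0.88 ± 0.25, and Dtx2, a Deltex ligase gene, fell by 1.02 ± 0.22. In the libraries labelled kd 1 and 2 Neurl1b was lower than in any WT library, at 0.464 and 1.22 against 2.61 to 7.30 CPM, and with 8 libraries it was at 1.63 ± 1.29 (adjusted p = 0.548). In CPM Dtx2 was higher there than in any WT library, at 51.8 and 46.7 against 35.0 to 38.1 CPM. In TPM Dtx2 was lower there than in any WT library, at 20.6 and 20.0 against 22.4 to 27.0 TPM. Of 16 genes of the nuclear complex and its corepressors 2 rose and 3 fell. Ctbp1, which encodes a corepressor, fell from 543 ± 74.0 to 186 ± 56.9 CPM (-1.55 ± 0.24, adjusted p = 0.00928) and Ctbp2 by 0.69 ± 0.19, while Kat2b, which encodes an acetyltransferase, rose by 1.37 ± 0.37. Rbpj was at 62.1 ± 7.60 CPM in WT and 94.2 ± 22.7 CPM in the libraries labelled kd 3 to 5 without passing (adjusted p = 0.0798), and at 184 and 158 CPM in those labelled kd 1 and 2. Of 7 proneural factors 2 were tested and none passed.

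**Figure D4:**
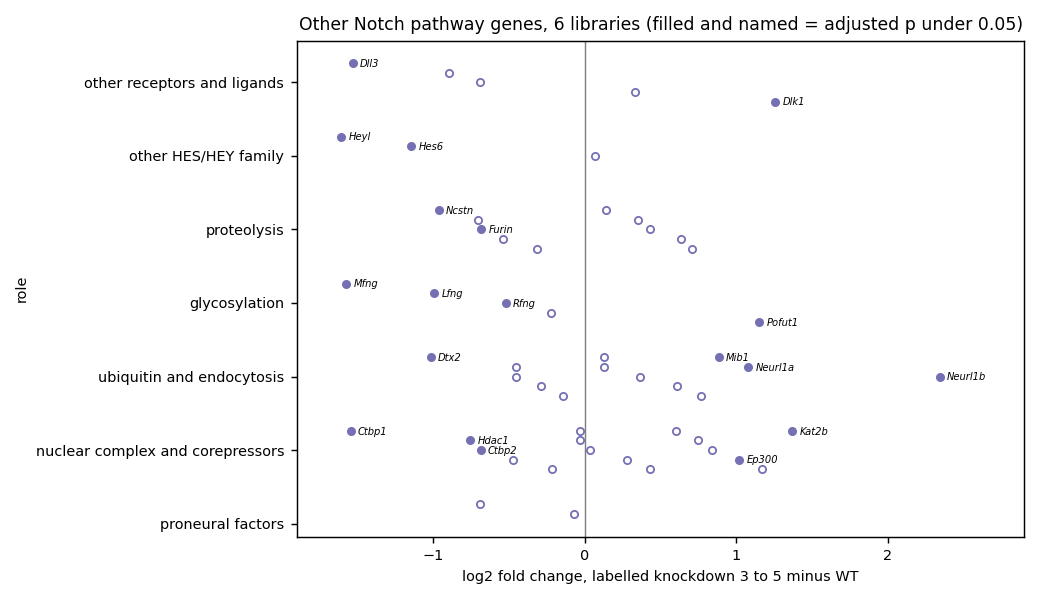
Log2 fold change (x axis, libraries labelled kd 3 to 5 minus WT) of the 54 tested other Notch pathway genes by role (y axis), filled and named where the adjusted p is under 0.05. The 3 Fringe genes Mfng, Lfng and Rfng lie left of 0 and Neurl1b, at 2.34, farthest right.

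The remaining marker lists also differed between the labels in the 6 libraries. Of 12 macrophage and leukocyte genes 11 rose and none fell (median 2.15), with no marker at 0. Of 10 enteric neuron genes 5 fell and none rose, with sums of 655 to 1131 CPM in the libraries labelled kd 3 to 5 and 1681 to 2218 CPM in WT. Of 8 glial genes 4 fell and none rose (128 to 156 against 392 to 412 CPM). Of 10 mesenchyme genes 6 rose and none fell (5046 to 5568 against 2605 to 3843 CPM). Of 10 gut epithelium genes none passed, and of 6 mesothelial genes 2 fell. The part of these cell types in the results of the Notch genes was not tested.

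**Figure D5:**
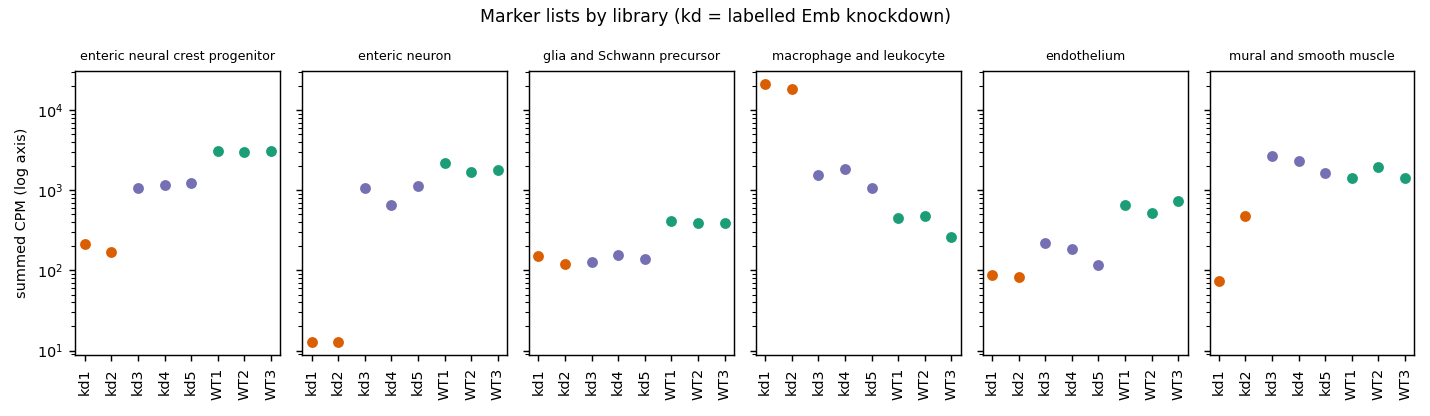
Summed CPM (y axis, log scale) of 6 marker lists in each library (x axis, kd for labelled Emb knockdown). The macrophage and leukocyte sum is 18232 to 21555 CPM in the libraries labelled kd 1 and 2, and the endothelial sum is 118 to 220 CPM in those labelled kd 3 to 5 against 524 to 747 CPM in WT.

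For 6 members, the genes with the nearest profile over the 8 libraries were sought among 12729 genes, by the root mean square difference of log2 CPM after each gene was centred on its own mean. The points share the libraries and the 2 that stand apart, so nearness is a description. Nearest to Dll4 were Upk3b, a mesothelial gene (0.40), and Sox17, which encodes a transcription factor of arterial endothelium (0.49). Notch3 was closest to Thsd4 (0.12) and the collagen gene Col11a1 (0.14). Dll1 was closest to Dlg2, which encodes a synaptic scaffold (0.43), and Igdcc3 (0.48). Hes5 was closest to Atoh8 (0.54) and to Angpt2, which encodes a vascular ligand (0.55). Notch1 was closest to Hip1 (0.15) and Rc3h2 (0.16) and Hes1 to Diaph3 (0.12) and Atg4a (0.13), members whose own SD over the 8 libraries was small, 0.51 and 0.31 on the log2 scale, against 3.29 for Dll4.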

How the data were processed

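Amplified full-length cDNA of sorted cells was made with Smart-seq2 and sequenced as DNA nanoballs, per the labels' protocols. HISAT, Bowtie2 and GRCm38.p6 were used, per the submitters' processing notes; the counting tool and annotation are not given in the sources used here. The deposited table held expected counts, unnormalised estimates per gene made by the authors, of which 17.6% to 19.8% in a library were not whole. The deposited table also gave FPKM, which corrects for length and depth, and TPM, which summed to 1000000 a library; the authors made both, per the file headers. There were 0 columns from outside the series. Without strand or molecular identifiers, amplified copies count as reads. Antisense reads cannot be told apart, and 6 members are overlapped by an annotated gene on the opposite strand (GENCODE, GRCm38).

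Counts were rounded, filtered with filterByExpr and scaled by TMM. Groups were compared with edgeR 4.0.16 (R 4.3.3), using its two-sided quasi-likelihood F test with robust dispersion, with Benjamini-Hochberg adjustment over all genes tested. The SE given with edgeR fold changes is the absolute log2 fold change divided by the square root of the F statistic. CPM values used the scaling of 8 libraries. Floors cover counting error only. Members, lists and the choice to leave out the libraries labelled kd 1 and 2 were made with earlier results of these data known. All members are named. Of other pathway genes, up to 3 per role with the smallest p among those called are named, plus Rbpj; 1 further gene of the rule is not reported here. For 6 members the 2 genes with the nearest profile are named. Profiles used a prior count of 2 and genes with a mean log2 CPM of at least 1. Alternatives were DESeq2 1.42.0 and its size factors, voom with quality weights and log2 FPKM with limma 3.58.1, library size alone, other filters, each library left out and a replicate block. The fits were checked on simulated counts. Tables and figures used Python 3.11.15, pandas 2.3.3 and matplotlib 3.10.9.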

Additional observations from a re-analysis of the deposited data

How the results depend on the processing

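With 6 libraries all 10 members kept their direction under the 14 alternatives, and with 8 libraries 7 of 10 did so under 17. With 8 libraries the value of Notch1 turned from 0.13 to -0.0555 with library size alone, -0.16 on log2(FPKM + 1) and -0.20 on log2(FPKM + 0.1), and that of Notch3 from 0.26 to -0.33 and -1.09 on the FPKM scales. Jag1 turned from -0.09 to 0.13 with voom. Leaving out 1 library gave -0.12 to 0.28 for Notch1, -0.20 to 0.57 for Notch3 and -0.63 to 0.22 for Jag1. None of these passed, and the cause was not tested.

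DESeq2 called 2220 genes and 1 member with 8 libraries, and voom 3720 genes and 2 members. With 6 libraries edgeR called 3090 genes and voom 6875, with 32 other pathway genes, while log2(FPKM + 1) and log2(FPKM + 0.1) left 2 members called, Dll4 and Nrarp. Leaving out 1 library gave 0 to 2 genes with 8 libraries, and 180 to 5982 genes, 1 to 5 members and 0 to 30 other pathway genes with 6. Of the calls with 6 libraries, 54.1% were higher with TMM and 38.4% on log2(FPKM + 1).

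The labels number the libraries of both groups, but same-numbered libraries did not deviate together (correlations across genes of -0.03, 0.04 and -0.04). Deviations of libraries labelled kd were taken from the mean of all 5, including the 2 that stood apart. The check could therefore miss a shared pair effect. With the replicate block 0 genes and 0 members were called with 8 libraries, and Notch1 and Notch3 were at -0.36 and -2.98. Libraries labelled kd with a number that no WT library carries cannot inform these values. The values therefore rest on the same-numbered libraries only. Those include the 2 that stood apart, in which Notch3 was at 0.773 and 1.18 CPM. For the 6 libraries no paired analysis was possible because the groups share only number 3. Depth limits Hes5 most, at 0 to 62 counts a library.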

Other observations

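Among the libraries labelled kd 3 to 5, the first differed from the other 2 in several Notch genes, a pattern singled out after the values were seen. Notch1, Notch2 and Jag1 were at 59.8, 62.8 and 18.4 CPM in the library labelled kd 3, against 121, 163 and 48.7 CPM in that labelled kd 4 and 94.2, 203 and 58.6 CPM in that labelled kd 5. The ligase gene Mib1 (40.2 against 70.1 and 78.3 CPM) and the coactivator gene Ep300 (44.5 against 79.4 and 113 CPM) were ordered alike. Ncstn was ordered the other way, at 123 against 61.2 and 61.3 CPM. The epithelial marker sum was 1074 CPM in that library against 323 and 284 CPM, and its part in these values was not tested.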
